A study of Mus musculus with 3 samples.

Results

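The CC and CXC chemokines were taken as every protein-coding mouse gene of the deposited tables whose symbol is Ccl or Cxcl followed by a number, with or without a final letter. The rule gave 35 of 29267 genes, of which 21251 were protein-coding. RNA-seq had been performed on mouse embryonic fibroblasts (MEFs) of the OG2 strain, MEFs of the ICR strain and embryonic stem cells (ESCs) of the R1 line, labelled naive, with 1 library each. OG2 mice carry a GFP reporter driven by Oct4 sequences, ICR is an outbred stock, and R1 is an established line. MEFs were at passages 3 to 5 and ESCs at passage 30, and the labels name no treatment. MEFs and ESCs stood for the start and the end point of reprogramming to pluripotency in the study.

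Chemokines are small secreted proteins that bind receptors of the G-protein-coupled kind and direct cell migration. Homeostatic chemokines are made without a stimulus, and CXCL12, a product of stromal cells, is the best known of them. Inflammatory chemokines are induced in fibroblasts and leukocytes by cytokines and microbial products, largely through NF-kappaB, and attract monocytes (CCL2, CCL7), neutrophils (CXCL1, CXCL5) or T cells (CXCL9, CXCL10).

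The rounded counts summed to 5149297 (OG2), 4590599 (ICR) and 1717798 (R1), the order used for values throughout. A count of 0 therefore allowed up to 3 counts, or 0.532, 0.580 and 2.15 counts per 1000000 (CPM, scaled as described below), and these limits cover counting error only. All 10 fibroblast markers were lower in the ESC-labelled library by edgeR, with summed levels of 33350, 34890 and 4116 CPM, so fibroblast transcripts were still measured there. Of 12 pluripotent cell markers, Pou5f1 had 0, 0 and 71 counts and Nanog 2, 0 and 51. Sox2 (3, 4 and 32) and Tfcp2l1 (3, 7 and 10) were also highest in the ESC-labelled library, whereas Klf2 was lowest there (63, 91 and 2). The library had no count for 6 markers, among them Zfp42, Dppa5a and Esrrb, which naive ESCs are known to express. It is called the ESC-labelled library below. CPM are scaled by TMM, a method that equalizes libraries over most genes, and differences are those of log2(CPM + 1).

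Cxcl12 and Cxcl14 dominated the chemokine transcripts of both MEF samples, whereas Ccl7 made up most of them in the ESC-labelled library. TPM, which corrects for gene length and so allows genes to be compared within a library, summed over the 35 genes to 986.8 (OG2), 1115 (ICR) and 158.1 (ESC-labelled). Cxcl12 and Cxcl14 together held 84.8%, 71.2% and 9.36% of that sum. The 19 inflammatory chemokines held 13.4%, 26.5% and 82.3%. Their summed TPM was 132.0, 295.4 and 130.2, so it was not higher in the ESC-labelled library than in either MEF sample. That of Cxcl12 and Cxcl14 was 836.9, 794.2 and 14.8.

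**Figure D1:**
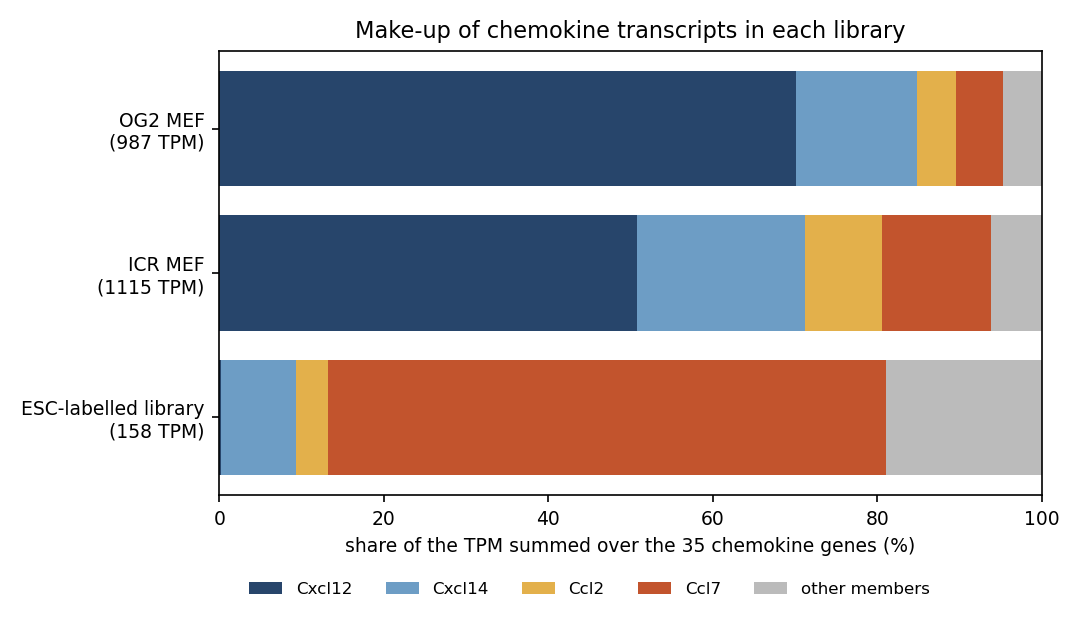
Stacked bars give the share (%) of the TPM summed over the 35 chemokine genes that Cxcl12, Cxcl14, Ccl2, Ccl7 and the other members held in each library, with the sum beside the library's name. Cxcl12 held 70.1% in OG2 MEFs and 50.7% in ICR MEFs, and Ccl7 held 67.9% in the ESC-labelled library.

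Of the 35 genes, 20 had a count in each MEF sample and 13 in the ESC-labelled library, which was the shallowest. In all, 24 had a count in any library, 18 in both MEF samples and 11 in all 3 libraries. Another 11 had none anywhere: Ccl1, Ccl19, Ccl21a, Ccl21b, Ccl22, Ccl24, Ccl26, Cxcl2, Cxcl9, Cxcl13 and Cxcl17. These include the lymphoid chemokines Ccl19, Ccl21a and Cxcl13, which organize lymph nodes, and Cxcl9, an interferon target. Only 8 members reached 10 counts in a library, and the 16 others with a count stayed under 10 in each. A further 11 members had counts in MEFs and none in the ESC-labelled library, but at the mean MEF level each would have given under 3 counts there, so their loss was not detectable at this depth.

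**Figure D2:**
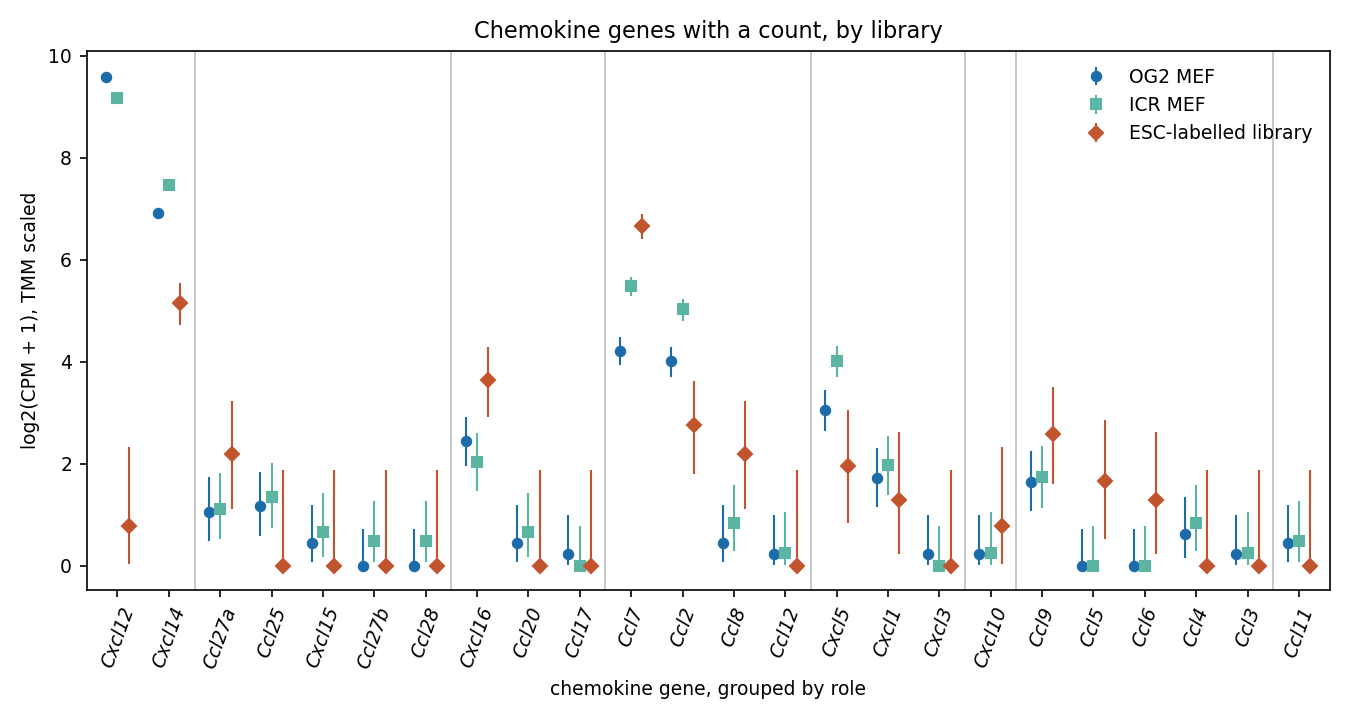
Points give log2(CPM + 1), TMM scaled, of the 24 chemokine genes with a count in OG2 MEFs, ICR MEFs and the ESC-labelled library, with 2-sided 95% Poisson intervals for counting error, whose upper ends for genes at 0 lie above the limit of 3 counts. Grey lines separate groups by role, from Cxcl12 and Cxcl14 at the left to the inflammatory genes at the right. Cxcl12 lay at 9.58 and 9.18 in MEFs and at 0.78 in the ESC-labelled library.

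Cxcl12 (ENSMUSG00000061353, chr6:117168535-117181367, plus strand, GRCm38) binds CXCR4 and guides stem cells and lymphocytes. MEFs gave 4296 (OG2) and 2998 (ICR) counts, against 1 in the ESC-labelled library. In CPM these were 762.5, 580.0 and 0.717. Both MEF samples were high and the ESC-labelled library stood far outside their range. Its level fell by 8.60 on the log2 scale against the MEF mean (SD of the MEF samples 0.28, n = 2; edgeR's quasi-likelihood test, Benjamini-Hochberg adjusted p = 6.411e-07). Against ICR MEFs the ratio was 809-fold, with a counting interval of 145 to 31960. Among the 12726 genes with at least 10 counts in a library, 0.00786% had a lower difference. At the mean MEF level 936 counts would have been seen in the ESC-labelled library, so depth did not limit this comparison.

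Cxcl14 (ENSMUSG00000021508, chr13:56288643-56296551, minus strand), a chemokine of epithelia and fibroblasts, had 672, 909 and 48 counts in the same order, or 119.3, 175.9 and 34.4 CPM. The ESC-labelled library was again the lowest, but it kept a measurable level. The difference was -2.04 (SD 0.39, n = 2; edgeR adjusted p = 4.218e-04). OG2 MEFs were 3.46-fold above it (counting interval 2.58 to 4.75) and ICR MEFs 5.11-fold (3.82 to 6.98). Of the counts of both genes, Cxcl14 took 13.5%, 23.3% and, in the ESC-labelled library, 98.0% (Wilson interval 89.3 to 99.6%). Both genes fell, but by unlike amounts, since 19.3% of the 12726 genes had a lower difference than Cxcl14. In bulk RNA, fewer cells that express a gene and less RNA per cell cannot be told apart.

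Promoters of these homeostatic genes are shown because they are the 2 highest members in MEFs. Sequences are those of RefSeq on GRCm38.p6, 250 bases before and 50 after the start site, read 5′ to 3′, and the capitals mark each CG.
Cxcl12 (chr6:117168285-117168584, plus strand): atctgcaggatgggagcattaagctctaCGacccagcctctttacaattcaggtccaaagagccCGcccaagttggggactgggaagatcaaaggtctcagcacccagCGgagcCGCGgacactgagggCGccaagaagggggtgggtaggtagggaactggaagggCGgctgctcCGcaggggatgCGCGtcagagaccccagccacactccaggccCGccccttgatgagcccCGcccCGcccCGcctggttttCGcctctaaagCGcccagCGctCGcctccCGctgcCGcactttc
Cxcl14 (chr13:56296502-56296801, minus strand): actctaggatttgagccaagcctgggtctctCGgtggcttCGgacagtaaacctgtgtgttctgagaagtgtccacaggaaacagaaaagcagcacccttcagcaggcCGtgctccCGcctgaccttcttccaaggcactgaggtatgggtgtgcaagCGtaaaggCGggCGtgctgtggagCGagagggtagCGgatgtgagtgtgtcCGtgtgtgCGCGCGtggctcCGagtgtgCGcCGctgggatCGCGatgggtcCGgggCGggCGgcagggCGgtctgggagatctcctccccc
The Cxcl12 promoter holds 20 CG and the Cxcl14 promoter 22, and 73.5% and 76.9% of all 32851 RefSeq promoters hold fewer. The median over all promoters was 7 and over the 31 promoters of 25 members 5. Neither holds a match to the kappaB consensus on either strand.

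The monocyte-attracting genes Ccl7 and Ccl2 differed from MEFs in opposite directions. On the CPM scale Ccl7 was higher and Ccl2 lower in the ESC-labelled library, although both lie in the same chromosome 11 cluster, 8258 bases apart, and both attract monocytes through CCR2 (CCL7 also through other receptors). Ccl7 (ENSMUSG00000035373, chr11:82045712-82047525, plus strand) had 99, 226 and 139 counts. Scaled for depth these were 17.6, 43.7 and 99.7 CPM, so that the ESC-labelled library was highest and OG2 MEFs lowest.

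The log2 difference of Ccl7 was 1.81 (SD of the MEF samples 0.90, n = 2; edgeR adjusted p = 0.003245). The ESC-labelled library was 5.67-fold above OG2 MEFs (counting interval 4.35 to 7.42) and 2.28-fold above ICR MEFs (1.83 to 2.83). The difference was 1.17 without OG2 MEFs and 2.44 without ICR MEFs. The order of the libraries depends on the scale. In TPM, Ccl7 was 56.5, 148.1 and 107.3, the ESC-labelled library lay between the MEF samples, and the difference was 0.23. On the TPM scale the median difference of all genes shifted by -1.11.

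Ccl2 (ENSMUSG00000035385, chr11:82035571-82037453, plus strand) encodes the main monocyte chemoattractant of fibroblasts. It had 85, 163 and 8 counts, or 15.1, 31.5 and 5.74 CPM. The ESC-labelled library was the lowest, and the difference was -1.76 (SD 0.72, n = 2; edgeR adjusted p = 0.02873). The call was lost with DESeq2, whose adjusted p was 0.0916. With a correction for GC content the difference was -1.24, and Ccl2 was then no longer 1 log2 unit below both MEF samples.

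Within the pair, Ccl7 took 53.8% of the OG2 counts (Wilson interval 46.6 to 60.9%), 58.1% of the ICR counts (53.1 to 62.9%) and 94.6% of the ESC-labelled counts (89.6 to 97.2%). The MEF intervals overlapped each other and not that of the ESC-labelled library. This share needs no scaling between libraries. No 50-base stretch of either gene's transcripts occurs in another gene, so reads of the pair could be told apart. Ccl8, another monocyte attractant, had 2, 4 and 5 counts and Ccl12 had 1, 1 and 0, too few for a comparison.

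**Figure D3:**
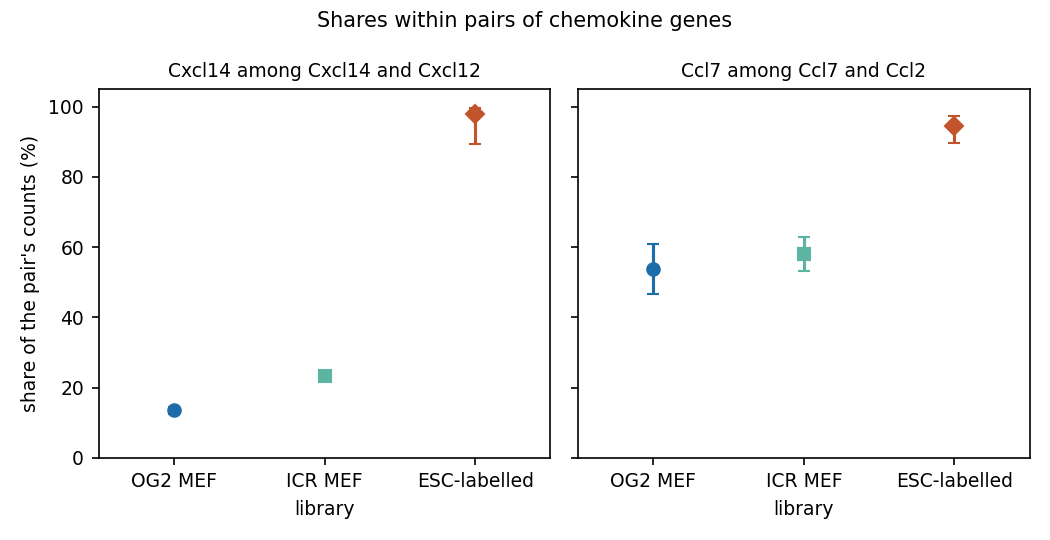
The left panel gives the share (%) of Cxcl14 in the summed counts of Cxcl14 and Cxcl12, and the right panel that of Ccl7 in the summed counts of Ccl7 and Ccl2, in each library, with 95% Wilson intervals. Both shares are highest in the ESC-labelled library, at 98.0% and 94.6%.

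The 4 neutrophil-attracting chemokines had lower summed TPM than the 4 monocyte attractants in every library (16.3, 29.8 and 2.59 against 107.1, 258.5 and 120.3). Cxcl5 (ENSMUSG00000029371, chr5:90759360-90761624, plus strand), a ligand of CXCR2, had 41, 78 and 4 counts, or 7.28, 15.1 and 2.87 CPM. The ESC-labelled library was lowest, with a difference of -1.58 (SD 0.68, n = 2), and this did not pass the test (edgeR adjusted p = 0.06562). It passed without the filter on low counts (edgeR adjusted p = 0.007027) and did not pass with DESeq2. The counting interval of the ratio to OG2 MEFs held 1 (0.10 to 1.09), and that of the ratio to ICR MEFs did not (0.05 to 0.51). Cxcl1, which binds the same receptor, had 13, 15 and 2 counts and a difference of -0.56 (SD 0.17, n = 2; edgeR adjusted p = 0.5949). Cxcl3 had 1 count, in OG2 MEFs, and Cxcl2 none.

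Cxcl1, Cxcl2 and Cxcl3 are shown together because their promoters share a kappaB stretch while their counts in MEFs differed. Capitals mark the match to the kappaB consensus.
Cxcl1 (chr5:90891154-90891204, plus strand): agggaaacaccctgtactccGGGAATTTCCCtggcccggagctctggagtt
Cxcl2 (chr5:90903782-90903832, plus strand): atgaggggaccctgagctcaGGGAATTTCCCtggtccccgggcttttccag
Cxcl3 (chr5:90786008-90786058, plus strand): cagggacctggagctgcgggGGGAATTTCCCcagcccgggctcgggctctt
The match starts 71, 97 and 73 bases before the start site in that order, and its 11 bases read the same in the 3 genes and hold a match on each strand. Cxcl1 had 13 and 15 counts in MEFs beside 0 for Cxcl2 and at most 1 for Cxcl3. Matches were found in 8 of the 31 promoters of the 25 members in the RefSeq table, and in 8.46% of all RefSeq promoters. The 8 belong to Ccl1, Ccl9, Ccl20, Ccl27a, Cxcl1, Cxcl2, Cxcl3 and Cxcl10. TATAAA, searched on both strands as well, was found in 9 of the 31 promoters and in 13.6% of all promoters. Of the 8 members with at least 10 counts, 4 had an entry, and Ccl2, Ccl7, Cxcl5 and Cxcl16 had none. Among the named members with an entry, Ccl9 had its match 35 bases before the start site.
Ccl9 (chr11:83578642-83578691, minus strand): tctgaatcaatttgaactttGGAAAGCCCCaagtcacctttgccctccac

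The other named members had few counts. Cxcl16 (ENSMUSG00000018920, chr11:70453983-70459984, minus strand), a membrane-bound chemokine and scavenger receptor, had 25, 16 and 16 counts, or 4.44, 3.10 and 11.5 CPM. The ESC-labelled library was the highest, with a difference of 1.40 (SD 0.29, n = 2; edgeR adjusted p = 0.01882), and this call was lost with DESeq2 (adjusted p = 0.2101). Of its 50-base stretches, 16.9% also occur in the overlapping gene Zmynd15, and whether reads of Zmynd15 were counted there was not tested.

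Ccl9, a CCR1 ligand, had 12, 12 and 7 counts, or 2.13, 2.32 and 5.02 CPM, and its difference of 0.90 did not pass the test (edgeR adjusted p = 0.1643) and was -0.59 in TPM. Ccl5 (0, 0 and 3 counts) and Ccl6 (0, 0 and 2 counts) were seen in the ESC-labelled library alone, and 3 counts or fewer set no level. The interferon target Cxcl10 had 1 count in each library. Ccl27a, a skin chemokine, had 6, 6 and 5 counts (edgeR adjusted p = 0.1385), and 45.0% of its 50-base stretches occur in other genes.

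By edgeR, 3 of the 9 members tested were lower in the ESC-labelled library (Cxcl12, Cxcl14 and Ccl2), where 36.0% of the 12663 genes tested were lower. Another 2 were higher (Ccl7 and Cxcl16), where 31.4% of genes were higher. At least 1 log2 unit below both MEF samples lay 5 of the 24 members with a count (Ccl2, Ccl25, Cxcl5, Cxcl12 and Cxcl14), against 25.9% of 17810 genes. Ccl25 had 7, 8 and 0 counts, and its loss was not detectable at this depth. At least 1 unit above both lay 6 (Ccl5, Ccl6, Ccl7, Ccl8, Ccl27a and Cxcl16), against 21.9%. Of these, Ccl5, Ccl6, Ccl8 and Ccl27a stayed under 10 counts in each library, too few to set a level. In TPM, 8 members lay below and 2 above, where 43.2% and 9.12% of all genes were. The members' shares were near those of all genes and are no result about chemokines as a class. The median difference was -0.24 over the 24 members and -0.13 over the 17810 genes. The test had 1 residual degree of freedom, its spread came from MEFs of different strains, and nothing in the labels says that they were replicate cultures, so its p-values measure only the spread between these samples.

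**Figure D4:**
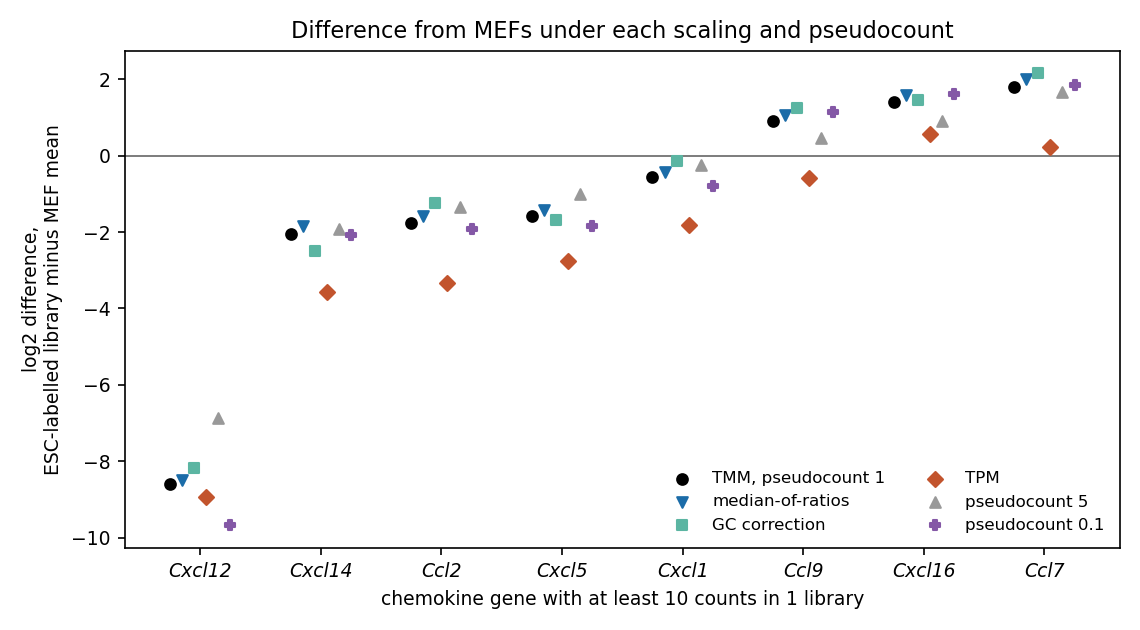
Points give the log2 difference from the MEF mean of the ESC-labelled library for the 8 members with at least 10 counts in a library, under TMM scaling with pseudocounts of 1, 5 and 0.1, median-of-ratios scaling, a GC-content correction and TPM. Cxcl12, Cxcl14, Ccl2, Cxcl5 and Cxcl1 lie below 0 under each, Cxcl16 and Ccl7 above 0 under each with Ccl7 down to 0.23 in TPM, and Ccl9 turns from 0.90 to -0.59 in TPM.

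Between the MEF strains, the inflammatory chemokines Ccl7, Ccl2 and Cxcl5 and the homeostatic Cxcl14 had higher levels in ICR MEFs, and Cxcl12 in OG2 MEFs. With 1 library for each strain, strain, culture and passage cannot be told apart, and the intervals below are exact Clopper-Pearson intervals that compare these libraries for counting error only. Ccl7 was 2.49-fold higher in ICR MEFs (1.96 to 3.18), Ccl2 2.09-fold (1.60 to 2.75) and Cxcl5 2.07-fold (1.40 to 3.10). Cxcl14 was 1.47-fold higher there (1.33 to 1.63), and Cxcl12 was 1.31-fold higher in OG2 MEFs (1.25 to 1.38). For Cxcl1, Cxcl16 and Ccl9 the intervals held 1, with Cxcl16 at 1.43-fold in favour of OG2 MEFs (0.74 to 2.87).

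Of the 8 members with at least 10 counts in a MEF library, 4 had an interval on the side of ICR MEFs, where 13.1% of 12185 genes did, and 1 on the side of OG2 MEFs, where 12.8% did. By log2(CPM + 1), Ccl2 (-1.02) and Ccl7 (-1.27) were at least 1 unit higher in ICR MEFs among the 24 members, against 1.81% of genes, and no member was at least 1 unit higher in OG2 MEFs, against 0.955%. The middle 90% of genes lay between -0.69 and 0.50. Of the 12726 genes, 1.18% had a lower OG2 minus ICR difference than Ccl7, 2.13% than Ccl2, 2.39% than Cxcl5 and 7.30% than Cxcl14.

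**Figure D5:**
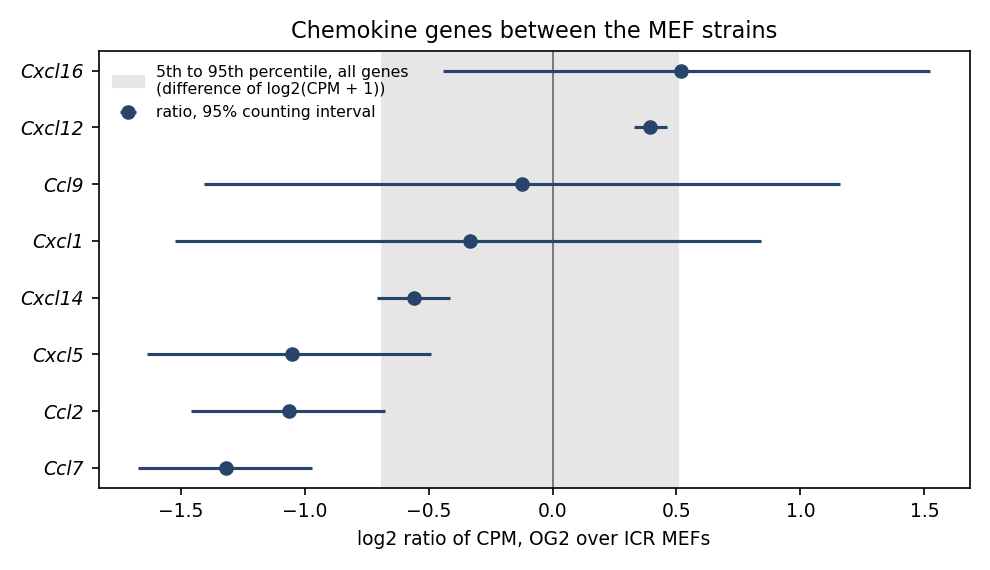
Points give the log2 ratio of CPM between OG2 and ICR MEFs for the 8 chemokine genes with at least 10 counts in a MEF library, with 95% Clopper-Pearson intervals for counting error, and the grey band is the range from the 5th to the 95th percentile of all genes, from -0.69 to 0.50 on log2(CPM + 1). Ccl7, Ccl2 and Cxcl5 lie to the left of the band, on the side of ICR MEFs, and Cxcl12 lies within it.

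Leukocyte markers had a higher sum in OG2 MEFs than in ICR MEFs. The 12 markers summed to 74.7, 40.8 and 88.2 CPM, with 4, 5 and 7 of them at 0. Of the 8 with at least 10 counts in a MEF library, 4 had an interval on the side of OG2 MEFs and 0 on that of ICR MEFs (12.8% and 13.1% of all genes). Itgam, an integrin gene of myeloid cells, gave 63.1 of the 88.2 CPM, with 21, 11 and 88 counts (edgeR adjusted p = 5.461e-06 for higher in the ESC-labelled library). Ptprc, the pan-leukocyte marker, had 11, 0 and 0 counts and the macrophage marker Adgre1 34, 5 and 0, so both were highest in OG2 MEFs. Cd3e, Ly6g and Cd74 were at 0 in every library. The adhesion gene Icam1, an inflammatory target, had 53, 127 and 6 counts and was 2.61-fold higher in ICR MEFs (1.88 to 3.67). In the same group of adhesion and enzyme genes, Ptgs2 (698, 359 and 15 counts) was 1.78-fold higher in OG2 MEFs (1.57 to 2.03). Vcam1 was 1.13-fold higher there (1.01 to 1.27). Of the 4 genes of that group with at least 10 counts in a MEF library, 2 had an interval towards OG2 MEFs and 1 towards ICR MEFs. Endothelial markers summed to 13.3, 18.2 and 83.2 CPM, with Emcn at 10, 36 and 1 counts and Pecam1, which ESCs also express, at 0, 0 and 90. Kdr, the highest of them in MEFs, had 61, 54 and 0 counts and so went against the rise of the sum (difference -3.54). Tek had 3, 4 and 23 counts. The part of these markers in the results was not tested.

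Most receptors of the named chemokines had few counts in MEFs, and Ackr3 was the exception. Cxcr4, the signalling receptor of CXCL12, had 4, 1 and 2 counts, whereas Ackr3, which scavenges CXCL12, had 387, 211 and 19. Ackr3 fell in the ESC-labelled library by 1.88 on the log2 scale (SD 0.52, n = 2; edgeR adjusted p = 0.004527), and its OG2 minus ICR difference was 0.74, in favour of the strain with more Cxcl12. Ccr2, the receptor of CCL2 and CCL7, had no count, Ccr1, a receptor of CCL9, had 1, 0 and 0, and Ccr3, a receptor of CCL7, had 1, 0 and 0.

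Cxcr2, the receptor of CXCL1 and CXCL5, had 4, 4 and 338 counts (6.68% of its 50-base stretches occur in other genes) and rose by 7.13 (SD 0.04, n = 2; edgeR adjusted p = 5.185e-08) in the library in which those ligands had 2 and 4 counts. Cxcr6, the receptor of CXCL16, had 2, 19 and 3 counts and Cx3cr1, the receptor of CX3CL1, 27, 7 and 1. These were the receptor genes at least 1 unit apart between the strains, Cxcr6 towards ICR MEFs (-1.79) and Cx3cr1 towards OG2 MEFs (1.30). Of all genes, 1.81% and 0.955% were so, in that order. Of the 23 receptor genes, 15 had a count and 6 were tested, with 1 lower and 3 higher in the ESC-labelled library (36.0% and 31.4% over all genes tested).

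The RNA of NF-kappaB genes, which mediate the induction of inflammatory chemokines, was at like levels in both MEF samples. Activity of the pathway was not measured. All 32 listed genes were tested, and 12 were lower and 5 higher in the ESC-labelled library (36.0% and 31.4% over all genes tested). None was 1 unit apart between the MEF samples, where 0.955% of all genes were towards OG2 MEFs and 1.81% towards ICR MEFs. With shares this low, that is no result about the pathway. The median OG2 minus ICR difference was -0.02. Counting intervals put 2 genes on each side, where 12.8% (OG2) and 13.1% (ICR) of all genes lay. Nfkb1 had 358, 327 and 14 counts (edgeR adjusted p = 4.374e-05 for lower) and Rela 385, 340 and 186 (1.703e-04 for higher), but in TPM Rela was 53.9, 55.6 and 36.7 and so lowest in the ESC-labelled library. The highest genes of the list, the adaptor gene Tab2 and the TNF receptor gene Tnfrsf1a, had 697, 628 and 33 and 895, 813 and 15 counts, and both were lower. Among inducing receptors, Il1r1 had 223, 247 and 0 counts and Tlr4 70, 87 and 0.

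Of 15 other inflammatory genes, 8 were tested, with 3 lower and 2 higher in the ESC-labelled library (36.0% and 31.4% over all genes tested). The colony-stimulating factor gene Csf1 had 1121, 1100 and 66 counts and the adhesion gene Vcam1 657, 532 and 23, and both were lower (edgeR adjusted p = 3.342e-05 and 1.978e-05). The cytokine genes Il1a, Il1b and Csf2 had no count in any library, Il6 had 9, 6 and 0, and Tnf 2, 0 and 0. Of 4 chemokines named outside the rule, Cx3cl1 had 83, 63 and 3 counts and fell by 2.19 on the log2 scale (edgeR adjusted p = 0.005261), the platelet chemokine Ppbp had 15, 9 and 0, Pf4 7, 1 and 0, and Xcl1 none.

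In the order of TPM, Cxcl12 and Cxcl14 came first and second in both MEF samples, at 691.7 and 145.2 in OG2 MEFs and 565.6 and 228.6 in ICR MEFs. Ccl7 and Ccl2 came next, and their counting intervals overlapped in OG2 MEFs (45.9 to 68.7 and 38.0 to 58.8) and not in ICR MEFs (129.4 to 168.7 and 89.1 to 121.8). Cxcl5 followed at 9.87 and 21.8. In the ESC-labelled library, Ccl7 at 107.3 stood above Cxcl14 at 14.5 (10.7 to 19.2), and from Cxcl14 to Cxcl16 the intervals of the next neighbours overlapped. Cxcl12 was the last of its 13 detected members there, at 0.29.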

How the data were processed

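RNA-seq data of OG2 MEFs, ICR MEFs and R1 ESCs (1 library each) were used. Per the labels, libraries were made with a TruSeq kit from total RNA. The submitters' processing notes name Bowtie, RSEM and mm10, and the paper's methods name trimming, bowtie2 and transcripts of the Ensembl annotation v67. Whether the deposited tables rest on that release was not settled here. The authors deposited RSEM expected counts, TPM and FPKM for each gene. The deposited FPKM was not used, since TPM orders genes in a library in the same way. The deposited TPM is scaled by the authors' RSEM run for gene length and to a fixed sum.

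Gene IDs were joined to GENCODE annotation on GRCm38, and 98.3% matched. Expected counts were rounded to whole numbers, and 4 of the members had counts that were not whole before rounding. Genes with a count in any library (17810) were scaled by TMM in R 4.3.3 (edgeR 4.0.16), and log2 values were taken after a pseudocount of 1 was added to the CPM. The ESC-labelled library was compared with both MEF samples by the quasi-likelihood test of edgeR, with p-values adjusted (Benjamini-Hochberg) over the 12663 genes that passed its filter on low counts, and an adjusted p under 0.05 was called. DESeq2 1.42.0 was the alternative. Differences were also called at 1 log2 unit from both MEF samples. Strains were compared by exact Clopper-Pearson intervals of count ratios (scipy 1.17.1), since 1 library for each gives no replicate. Cxcl11, a polymorphic pseudogene in the annotation, is not a member.

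Named with values were members with at least 10 counts in a library, members seen in the ESC-labelled library alone, receptors of named members, in each list the genes with the highest mean counts, and genes 1 unit apart between MEF samples, and further genes were named after their values were seen. The members and gene lists were chosen with earlier results of these data known. Alternatives were other pseudocounts, median-of-ratios scaling, TPM, a count minimum of 10, a GC-content correction, edgeR without its filter on low counts, and leaving out each MEF sample.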

Additional observations from a re-analysis of the deposited data

How the results depend on the processing

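No chemokine that was 1 log2 unit or more away from both MEF samples changed its direction against the MEF mean under the alternatives run. None that was 1 unit apart between the MEF samples changed its direction either. Against ICR MEFs alone, Ccl7 and Ccl27a did turn in TPM. The ESC-labelled library then lay below ICR MEFs (107.3 against 148.1 for Ccl7, 8.01 against 8.73 for Ccl27a). Of the members' differences between the ESC-labelled library and MEFs, 97 values under alternatives moved by less than the spread between the MEF samples and 79 moved by more. Values with a MEF sample left out could not move by more than that spread, and a count minimum of 10 left values unchanged. Both kinds are among the 97, so that number does not measure stability. For the difference between strains, 103 values lay within the counting interval of the ratio or equalled the reported 0, and 1 lay outside it (Cxcl12 in TPM, 0.29 against 0.39). DESeq2 called 1 member higher (Ccl7), against 2 with edgeR, where 22.8% and 31.4% of all genes tested were higher. Without the filter on low counts edgeR called 4 lower, with Cxcl5 added, and 3 higher, with Ccl5 added on its 3 counts (29.0% and 23.7% of all genes). Members at least 1 unit below both MEF samples numbered 5, and 11 with a pseudocount of 0.1, 2 with one of 5 (Cxcl12 and Cxcl14), 8 in TPM and 3 with the GC-content correction, where 25.9% of all genes became 33.6%, 19.5%, 43.2% and 27.4%. Members above both numbered 6, and 1 with a pseudocount of 5 (Ccl7), 2 in TPM (Ccl5 and Ccl6) and 2 when at least 10 counts were asked for, where 21.9% of all genes became 15.6%, 9.12% and 23.7%. No member was 1 unit higher in OG2 MEFs, and 2 were with a pseudocount of 0.1 and 2 in TPM. Members higher in ICR MEFs numbered 2, and 5 with a pseudocount of 0.1, 1 with one of 5, 1 with median-of-ratios scaling and 4 in TPM. Shares of all genes between the strains are given for the main setting alone (0.955% towards OG2 and 1.81% towards ICR MEFs). The strain counts under alternatives therefore have no share beside them and are no result about chemokines. For all counts under alternatives the cause was not tested. Without either MEF sample the counts ranged from 5 to 5 below and from 6 to 6 above. The difference of Ccl7 was 1.17 without OG2 MEFs and 2.44 without ICR MEFs, and that of Ccl2 -2.27 and -1.26. The median difference of all genes shifted by 0.17 with median-of-ratios scaling, 0.13 with a pseudocount of 5 and -1.11 in TPM. Members with a count fell from 20 to 11 (at least 3 counts) and 8 (at least 10 counts) in OG2 MEFs, from 20 to 8 (at least 10 counts) in ICR MEFs and from 13 to 3 (at least 10 counts) in the ESC-labelled library. No edgeR test could be had with a MEF sample left out, since 1 sample in each arm leaves no residual degrees of freedom. No paired analysis was possible because the groups share 1 replicate number at most. The depth of the ESC-labelled library limits the 11 members seen in MEFs alone.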
